A study of Mus musculus with 144 samples.

Results

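Primary mouse hepatocytes were exposed to 10 nM TCDD (2,3,7,8-tetrachlorodibenzo-p-dioxin) or to DMSO vehicle, and the 120 h harvest is described here. It is the last of 9 time points of 16 RNA-Seq libraries each, and its 16 libraries, 8 with TCDD and 8 with vehicle, were chosen by the hour and treatment in the labels, with no measured value in the choice. Each treatment had 4 libraries from WT mice (C57BL/6NCrl) and 4 from mice labelled PkmΔDRE or DRE-null, which gave 4 groups of 4. The PkmΔDRE mice were a homozygous line made by CRISPR-Cas9 deletion of an intronic dioxin response element of Pkm, the gene of pyruvate kinase M, and the deletion was in the whole body rather than in hepatocytes alone. All mice were male and 28 days old, and all cells, controls included, were plated on type I collagen in Williams' E medium with dexamethasone. The labels name neither the animal nor the isolation behind a library, so that the p-values measure the spread between these libraries, which may be partly technical.

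TCDD is a ligand of the aryl hydrocarbon receptor (AHR), a transcription factor that waits in the cytosol with HSP90 and other chaperones. On binding a ligand it moves to the nucleus, pairs with ARNT and binds dioxin response elements, whose core letters are GCGTG. In liver it is known for inducing the CYP1 monooxygenases and several conjugating enzymes, and its own repressors AHRR and TIPARP are among its target genes.

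The sequences upstream of 5 AHR target genes are shown because the results below turn on these genes. Each run covers the 250 bases before the transcription start in the RefSeq table of GRCm38.p6, 5′ to 3′ on the gene's strand, with GCGTG on either strand in capitals (CACGC on the strand shown). A match is placed by its leftmost base as shown, counted back from the start, where -1 is the last base shown. Cyp1a1 (chr9:57697363-57697612, plus strand) has a match at -54, Cyp1b1 (chr17:79715062-79715311, minus strand) at -76, Tiparp (chr3:65528197-65528446, plus strand) at -170 and Ahrr (chr13:74292332-74292581, minus strand) at -107, -82 and -27. Cyp1a2 (chr9:57683656-57683905, minus strand) has none in these letters.
Cyp1a1: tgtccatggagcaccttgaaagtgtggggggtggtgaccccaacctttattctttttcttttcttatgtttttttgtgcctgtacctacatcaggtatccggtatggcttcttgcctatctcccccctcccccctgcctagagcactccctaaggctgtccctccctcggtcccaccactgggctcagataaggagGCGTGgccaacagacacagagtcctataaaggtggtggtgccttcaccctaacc
Cyp1b1: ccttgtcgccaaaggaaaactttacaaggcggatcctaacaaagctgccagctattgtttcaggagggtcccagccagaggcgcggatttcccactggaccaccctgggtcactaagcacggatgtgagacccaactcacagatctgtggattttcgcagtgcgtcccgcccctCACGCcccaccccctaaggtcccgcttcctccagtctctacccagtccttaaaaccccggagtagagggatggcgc
Ahrr: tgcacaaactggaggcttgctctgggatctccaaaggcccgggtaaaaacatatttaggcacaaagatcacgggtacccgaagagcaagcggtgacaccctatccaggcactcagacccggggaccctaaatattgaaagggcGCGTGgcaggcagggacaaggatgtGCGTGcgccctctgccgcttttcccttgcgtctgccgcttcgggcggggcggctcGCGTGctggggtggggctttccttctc
Tiparp: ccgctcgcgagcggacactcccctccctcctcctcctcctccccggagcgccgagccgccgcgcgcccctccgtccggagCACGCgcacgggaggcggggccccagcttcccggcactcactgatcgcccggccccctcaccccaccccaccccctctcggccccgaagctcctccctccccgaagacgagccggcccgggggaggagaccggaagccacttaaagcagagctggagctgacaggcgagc
Cyp1a2: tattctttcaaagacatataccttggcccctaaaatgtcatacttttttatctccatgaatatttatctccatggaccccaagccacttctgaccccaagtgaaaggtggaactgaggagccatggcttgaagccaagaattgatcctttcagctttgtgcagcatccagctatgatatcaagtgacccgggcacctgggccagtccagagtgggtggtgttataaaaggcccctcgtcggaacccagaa
Over the 300 bases from 250 before to 50 after the start, GCGTG on either strand was in the window of 35.2% of the 27025 genes with a window and of 53.9% of the 11039 that were also tested at 120 h. The share was 41.7% of 175 genes called up and 50.3% of 149 called down, so it was not higher among called genes than among tested genes. Among the largest rises and falls with a window it was 7 of 11 and 5 of 9. Called genes without a window were not searched. A match is a string of letters and not a measured binding site, and elements outside the 300 bases were not searched. The study states that the 5 genes shown, Cyp1a2 included, have functional response elements in their regulatory regions.

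At 120 h a library held 16020989 to 27836143 counts on genes (median 19217417). Of all pairs, 18.2% to 24.2% were not counted on a gene, being unmapped, mapped to several places, on no gene or on several genes. Replicates are numbered in accession order within a group. WT TCDD replicate 3, library 71 of the series, stood apart from its group. The counts of genes called for TCDD against vehicle are therefore given with and without it, as are some single genes whose call it changed. The other WT TCDD libraries, replicates 1, 2 and 4, were closer to each other than any other pair of the 16, with a mean chi-square per gene of 4.35 to 8.86 against 23.3 for the next closest pair. That is still more than sampling noise gives, but it does not show that the libraries come from separate cultures. They were kept as 3 libraries and also summed to 1 as an alternative. Component 1 of a principal component analysis held 28.6% of the variance and spread the vehicle libraries, with PkmΔDRE vehicle replicates 1 and 4 at -41.2 and -59.8. Component 2 held 15.4% of the variance. On it WT vehicle libraries sat between 8.69 and 22.9 and WT TCDD libraries between -31.8 and -16.02. The PkmΔDRE libraries overlapped on it, with vehicle replicate 4 at -9.38 and TCDD replicates 1, 2 and 4 at 1.03, -5.76 and -5.52.

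**Figure D1:**
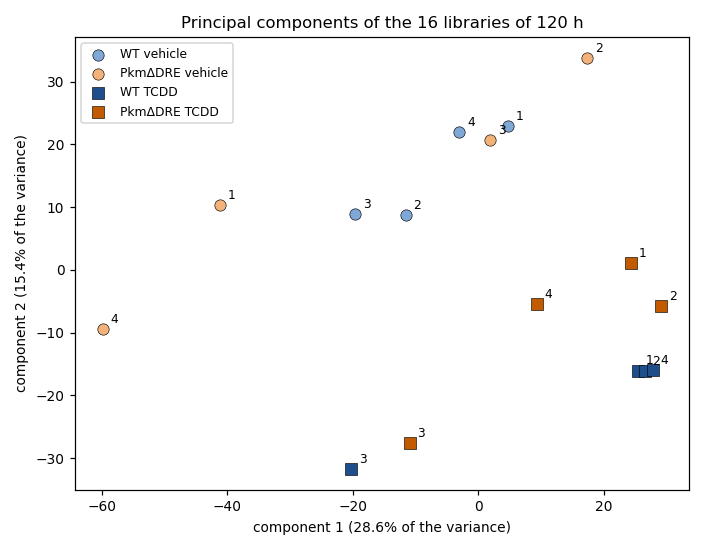
Principal components 1 and 2 of the 16 libraries of 120 h, computed on log2(CPM + 1) of the genes tested, with each library's replicate number beside its point (circles: vehicle, squares: TCDD). WT TCDD replicates 1, 2 and 4 fall at nearly the same place, replicate 3 lies at -20.2 on component 1, and PkmΔDRE vehicle replicates 1 and 4 lie at -41.2 and -59.8.

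The hepatocyte label was checked against 12 marker genes. Their summed level in CPM (counts scaled to a common library size with TMM) was 4309.5 to 21221 CPM in vehicle and 5893 to 19484 CPM in TCDD libraries, and albumin averaged 7813 CPM with vehicle and 9456 CPM with TCDD. Cyp2e1, a monooxygenase that marks the pericentral hepatocyte in vivo, was nearly absent at 0.272 and 0.215 CPM and too low to be tested. Of 9 lymphocyte and neutrophil markers 4 (Cd3e, Cd3g, S100a9 and Ly6g) were at 0 in every library, and the 9 summed to 0.705 CPM at most with vehicle and 0.709 CPM with TCDD. Macrophage markers summed to 29.95 to 386 CPM with vehicle and 40.9 to 180.2 CPM with TCDD, and endothelial markers to 90.8 to 236 and 104.4 to 378 CPM, with no member called in either list. Of the hepatocyte markers tested, Apoa1 and Cps1 fell. Of the 10 endothelial markers tested, all had a positive log2 fold change. The part of other cell types in the results below was not tested, and in bulk samples fewer cells of a type and less RNA per cell cannot be told apart.

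To ask which genes differed after 5 days of exposure, TCDD libraries were compared with vehicle libraries in a fit with the genotype label as covariate (edgeR quasi-likelihood test, Benjamini-Hochberg adjusted p under 0.05 and a fold of at least 1.5). Of 15324 genes tested, 453 were called (2.96%), 237 up (1.55%) and 216 down (1.41%). Without library 71, 524 of 15767 genes were called (3.32%), 280 up and 244 down, and 409 genes were called both ways. The median log2 fold change of all genes tested was -0.02. TCDD was above vehicle in all 8 against all 8 libraries for 0.894% of the genes tested and below it for 0.183%, so that separated groups were more frequent among rises. Among called genes, 43.5% of the 237 rises and 12.5% of the 216 falls had no overlap. Leaving out WT TCDD replicate 2 or 4 lowered the falls from 1.41% to 0.920% or 0.887% of the genes tested with all libraries, and summing replicates 1, 2 and 4 to 1 library left 157 rises and 76 falls.

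Of the 9 AHR target genes, 8 were tested and 7 rose, where 1.55% of all genes tested were called up, with a median log2 fold change over the 8 of 4.58. Below, the lowest, median and highest CPM of the 8 libraries of a treatment are given in that order, and an error after ± is a standard error of the log2 fold change. Cyp1b1, a monooxygenase of steroids and polycyclic hydrocarbons, was at 0, 0.0957 and 0.411 CPM with vehicle and 755, 1037 and 1298 CPM with TCDD. Its log2 fold change of 12.71 ± 0.33 (adjusted p = 3.36e-14) was the largest among the named genes at 120 h, from a vehicle level close to 0. Cyp1a1, which oxidises planar hydrocarbons, was at 9.62, 66.4 and 326 CPM with vehicle and 4049, 5107 and 5361 CPM with TCDD, a log2 fold change of 5.80 ± 0.53 (adjusted p = 3.30e-06). The TCDD libraries were tight for Cyp1a1, whereas the vehicle libraries spread from 9.62 CPM in WT replicate 1 to 326 CPM in WT replicate 2. Cyp1a2, its neighbour on chromosome 9 and an oxidase of aromatic amines and caffeine, was at 17.5, 100.9 and 132.7 CPM with vehicle and 781, 3903 and 4257 CPM with TCDD, a log2 fold change of 5.31 ± 0.45 (adjusted p = 1.40e-06). The lowest TCDD value was that of library 71 at 781 CPM, against 3819.8 to 4063 CPM in the other WT TCDD libraries.

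Ahrr, the AHR repressor, was at 0 in 5 of 8 vehicle libraries and at 0.339 CPM at most, against 17.3, 23.6 and 27.4 CPM with TCDD, a log2 fold change of 7.83 ± 0.46 (adjusted p = 1.32e-08). Tiparp, an ADP-ribosyltransferase that restrains AHR, went from 3.87, 7.88 and 13.6 CPM to 62.2, 130.7 and 134.3 CPM, a log2 fold change of 3.86 ± 0.28 (adjusted p = 2.54e-07). Both repressors thus had groups without overlap. Nqo1, a quinone reductase, was at 11.4, 23.6 and 32.5 CPM with vehicle and 35.9, 99.5 and 134.3 CPM with TCDD, a log2 fold change of 2.00 ± 0.31 (adjusted p = 7.49e-04). Library 71 held 44.4 CPM of Nqo1 against 129.99 to 134.3 CPM in the other WT TCDD libraries, and PkmΔDRE TCDD replicates 3 and 4 were low as well at 37.2 and 35.9 CPM. Ugt1a6a, a glucuronosyltransferase, had a log2 fold change of 2.00 ± 0.45 (adjusted p = 0.0163) with groups that overlapped, and was not called with WT TCDD replicates 1, 2 and 4 summed (adjusted p = 0.0873). Lekr1 did not pass the test, at 0.90 ± 0.31 (adjusted p = 0.118), and Aldh3a1 was too low to be tested. Of the receptor complex, 5 genes (Ahr, Arnt, Hsp90aa1, Hsp90ab1 and Ptges3) had log2 fold changes of -0.37 to 0.29, and none was called.

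Pkm, the gene whose response element the PkmΔDRE label concerns, was at 171, 238 and 486 CPM with vehicle and 298, 322 and 463 CPM with TCDD, and the log2 fold change of 0.19 ± 0.19 did not pass the test (adjusted p = 0.647). It was 0.24 under the WT label and 0.14 under the PkmΔDRE label. The 4 WT vehicle libraries alone ran from 171 to 486 CPM, a wider range than that of the WT TCDD libraries. Total Pkm counts do not separate its PKM1 and PKM2 splice forms and do not check the deletion, which lies in an intron.

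**Figure D2:**
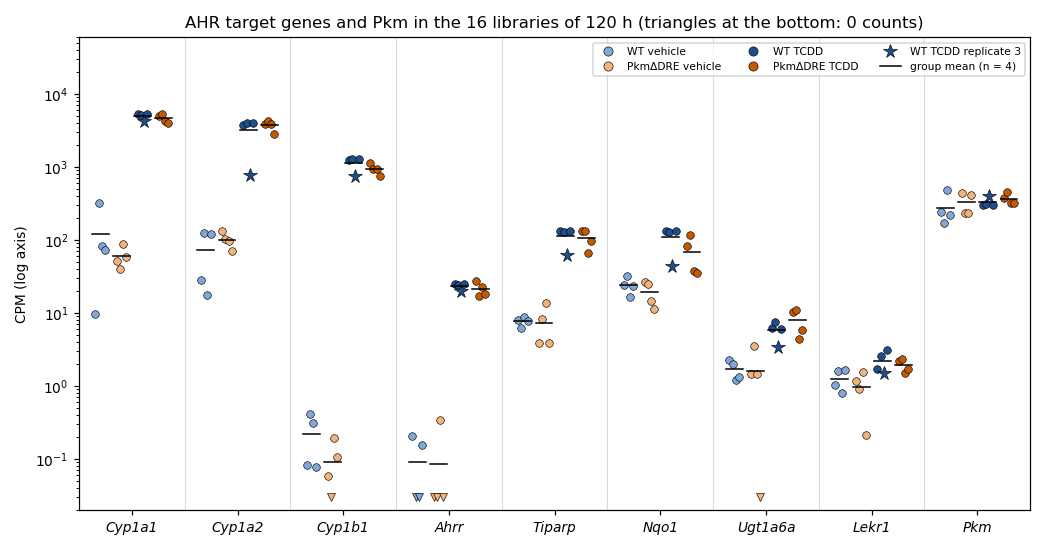
CPM on a log axis of the 8 AHR target genes tested and of Pkm in each of the 16 libraries of 120 h, with short lines at the means of 4 libraries and a star for WT TCDD replicate 3. Cyp1b1 and Ahrr run from near 0 with vehicle to 755 to 1298 CPM and 17.3 to 27.4 CPM with TCDD, while the Pkm values of the 4 groups overlap.

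Beyond the AHR target genes, the largest rises reported here were those of Kcnv2, Ces1f, Adh7, Ugt1a9, Slitrk5, Mal, Reln, Ces1b and Nefm, each with no overlap between the treatments. Ces1f, a carboxylesterase that hydrolyses lipid and drug esters, was at 0.0484, 0.272 and 0.770 CPM with vehicle and 3.82, 16.9 and 35.4 CPM with TCDD, a log2 fold change of 5.60 ± 0.60 (adjusted p = 2.20e-05). Ces1b was at 0.0969, 0.389 and 1.80 and 2.30, 11.5 and 22.7 CPM, a log2 fold change of 3.98 ± 0.57 (adjusted p = 4.15e-04). Library 71 was lowest of the WT TCDD libraries for both genes, and Ces1f in PkmΔDRE TCDD libraries spread from 3.82 to 35.4 CPM. The carboxylesterase family was listed after these rises had been seen, and is given as a count only. Of its 14 members tested, 5 rose, where 1.55% of all genes tested were called up. All 5 were of the Ces1 cluster: Ces1f, Ces1b, Ces1d (3.27 ± 0.59), Ces1c (2.85 ± 0.58) and Ces1g (1.08 ± 0.29). Ces2e stood at 0.05 ± 0.15 and Ces3a at -0.78 ± 0.42, and no Ces2 or Ces3 gene was called. Neighbouring Ces1 genes are close copies, and read pairs that map to more than 1 of them are left out of the counts.

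Adh7, a class IV alcohol dehydrogenase that also oxidises retinol, was at 0.166, 0.989 and 1.80 CPM with vehicle and 7.75, 31.9 and 70.1 CPM with TCDD, a log2 fold change of 5.28 ± 0.40 (adjusted p = 3.56e-07). Within the TCDD libraries, those with the WT label held 38.6 to 70.1 CPM and those with the PkmΔDRE label 7.75 to 25.3 CPM, and the difference in response between labels had an adjusted p of 1. Adh1, the main liver alcohol dehydrogenase, went from 20.7, 54.1 and 161 to 381, 717 and 912 CPM, a log2 fold change of 3.19 ± 0.42 (adjusted p = 2.07e-04). Both rises had groups that did not overlap. Adh5 (-0.01 ± 0.09) and Adh4 (-0.44 ± 0.25) were not called, in a family that was also listed after its rises had been seen.

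Ugt1a9, a glucuronosyltransferase of phenols and drugs, was at 0.235, 0.626 and 34.5 CPM with vehicle and 49.2, 87.8 and 130.9 CPM with TCDD, a log2 fold change of 5.05 ± 0.90 (adjusted p = 0.00275). WT vehicle replicate 2 alone held 34.5 CPM, while the other vehicle libraries were at 1.24 CPM or less. Without that library the log2 fold change was 7.23. Ugt1a7c went from 4.99, 13.8 and 33.6 to 83.7, 162 and 226 CPM, a log2 fold change of 3.28 ± 0.19 (adjusted p = 1.09e-08), with no overlap. Ugt1a6b had 1.91 ± 0.21 and Ugt1a1, which conjugates bilirubin, 1.49 ± 0.32 (adjusted p = 2.60e-05 and 0.0101). The Ugt1a family was listed after its rises had been seen. Of 7 Ugt1a genes tested, 5 rose, where 1.55% of all genes tested were called up. Ugt1a2 (1.69 ± 0.49) and Ugt1a5 (1.23 ± 0.63) did not pass the test, and without library 71, 6 of the 7 rose. These genes overlap on the genome and share their last exons, and pairs on more than 1 gene are not counted, so the counts do not cover whole transcripts. Of the 9 other glucuronidation genes tested, such as Ugdh and the Ugt2b family, none was called.

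Reln, the extracellular glycoprotein reelin, was at 2.72, 5.82 and 9.02 CPM with vehicle and 29.8, 99.8 and 142.8 CPM with TCDD, a log2 fold change of 3.98 ± 0.36 (adjusted p = 2.93e-06), with no overlap. Reln also stands among the 11 stellate and fibroblast markers, of which it was the only member called. The others tested included Col1a1 at 0.09 ± 0.53, Dcn at 0.15 ± 0.35, Des at -0.49 ± 0.57 and Acta2 at -0.83 ± 0.53. Nefm, a neurofilament subunit, went from 0.176, 0.545 and 0.813 to 3.71, 7.99 and 13.1 CPM, a log2 fold change of 3.86 ± 0.29 (adjusted p = 2.19e-07).

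Kcnv2, a potassium channel subunit, Slitrk5, a neuronal transmembrane protein, and Mal, a membrane trafficking proteolipid, also rose, from vehicle levels of 0.0886, 0.271 and 0.339 CPM at most. Kcnv2 reached 0.195, 1.88 and 4.96 CPM with TCDD (5.94 ± 0.69, adjusted p = 2.34e-05), and the 4 WT TCDD libraries (2.36 to 4.96 CPM) lay above the 4 PkmΔDRE TCDD libraries (0.195 to 1.40 CPM). The difference in response between labels did not pass the test for Kcnv2 (adjusted p = 1). Slitrk5 reached 0.483, 1.64 and 2.09 CPM (4.81 ± 0.69, adjusted p = 2.89e-04) and Mal 0.506, 2.94 and 4.59 CPM (4.24 ± 0.57, adjusted p = 2.02e-04). All 3 had groups without overlap, at levels where few reads decide the value.

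The largest falls were those of Wfdc21, A2m, Gpc3, Eya2 and Igfbp2, and overlap between the treatments was more frequent among them than among the rises. Wfdc21, a secreted whey acidic protein family member, was at 1.79, 3.96 and 163 CPM with vehicle and 0.142, 0.554 and 3.20 CPM with TCDD, a log2 fold change of -4.19 ± 0.92 (adjusted p = 0.0136). This value leaned on WT vehicle replicate 2, which held 163 CPM, and was -2.53 on the log2 scale without it. With WT TCDD replicates 1, 2 and 4 summed it was not called (adjusted p = 0.110). A2m, a protease inhibitor of plasma, was at 0.719, 1.12 and 7.57 CPM with vehicle and 0, 0.248 and 0.651 CPM with TCDD, a log2 fold change of -3.20 ± 0.54 (adjusted p = 0.00156). Apoa1, the main protein of high-density lipoprotein, was at 166, 287 and 2194 CPM with vehicle and 58.2, 76.9 and 161 CPM with TCDD, a log2 fold change of -2.44 ± 0.52 (adjusted p = 0.0109), which was not called with WT TCDD replicates 1, 2 and 4 summed (adjusted p = 0.113). Its vehicle level was highest in WT replicates 2 and 4 (2194 and 855 CPM), while every TCDD library lay below every vehicle library. Gpx3, a secreted glutathione peroxidase, went from 48.1, 103.7 and 282 to 18.9, 27.5 and 41.2 CPM (-2.24 ± 0.33, adjusted p = 5.56e-04), and Tff3, a trefoil peptide, from 7.55, 11.5 and 21.3 to 1.07, 2.95 and 5.51 CPM (-2.32 ± 0.24, adjusted p = 1.37e-05).

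Igf1, the growth factor that liver secretes under growth hormone, was at 15.2, 30.5 and 81.1 CPM with vehicle and 2.02, 6.16 and 13.2 CPM with TCDD, a log2 fold change of -2.39 ± 0.37 (adjusted p = 8.96e-04). Igfbp2, which binds it in plasma, was at 3.79, 6.65 and 16.9 CPM with vehicle and 0.462, 1.41 and 2.48 CPM with TCDD, a log2 fold change of -2.48 ± 0.39 (adjusted p = 8.99e-04). Neither gene's groups overlapped. They were the only 2 of the 13 genes of the growth hormone and IGF list that were called. Gpc3, a cell surface proteoglycan of fetal liver, fell from 0.886, 5.42 and 13.9 to 0.189, 0.740 and 1.37 CPM (-2.93 ± 0.40, adjusted p = 2.77e-04), with overlap. Ablim3, an actin-binding protein, fell from 22.5, 41.1 and 75.7 to 4.23, 6.54 and 23.7 CPM (-2.16 ± 0.27, adjusted p = 1.36e-04). Eya2, Fibin, Slc4a9, Cyp4f14, Tmem229a and Nhs completed the 15 largest falls, with log2 fold changes of -2.56 to -1.82, vehicle medians of 2.45 to 5.58 CPM and overlapping groups. Each lost its call under 1 or 2 alternatives. In a fit of all libraries of the series the adjusted p was 0.0516 for Eya2, 0.0841 for Slc4a9, 0.341 for Tmem229a and 0.526 for Nhs, and with WT TCDD replicates 1, 2 and 4 summed it was 0.0689 for Fibin and 0.116 for Cyp4f14, while Nhs was not called there either. Cyp4f14 was also not called with no filter on low counts.

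**Figure D3:**
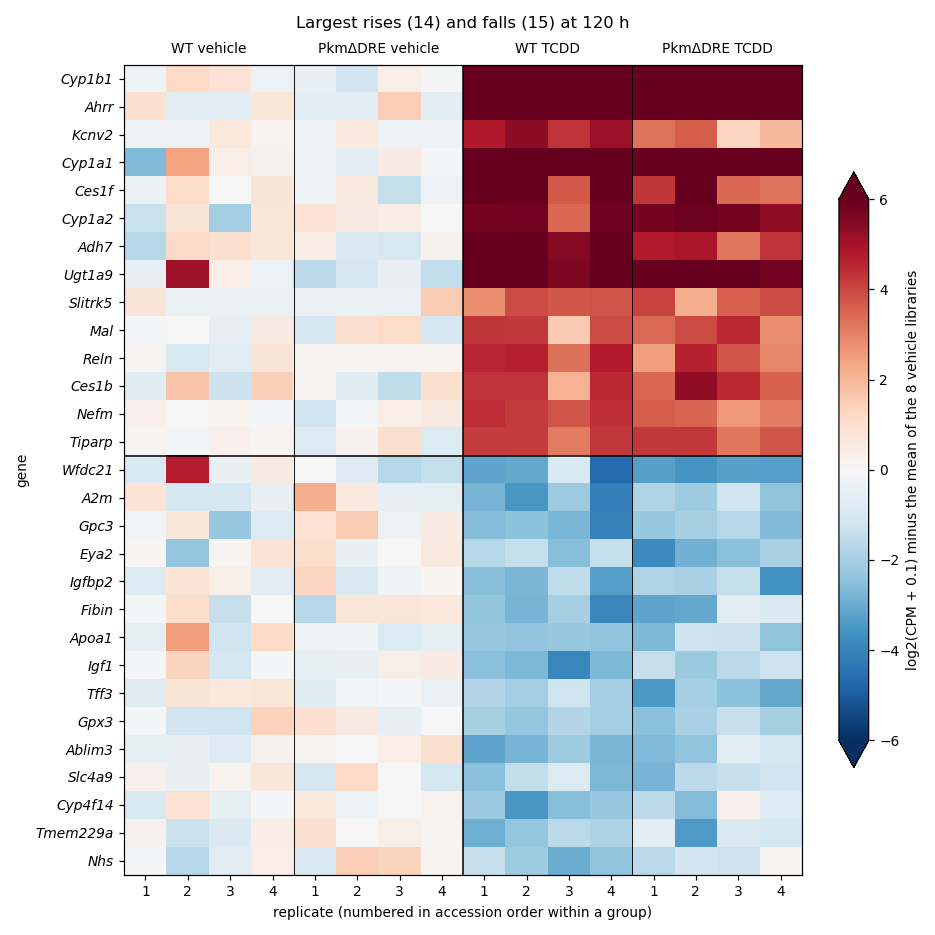
Heat map of 14 of the 15 largest rises (upper rows) and 15 largest falls (lower rows) at 120 h in each of the 16 libraries, as log2(CPM + 0.1) minus the mean of the 8 vehicle libraries, with colours capped at 6 in either direction. WT vehicle replicate 2 stands out in Ugt1a9 and Wfdc21 among the vehicle libraries, and WT TCDD replicate 3 is paler than its group in Cyp1a2, Ces1f, Ces1b and Mal.

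In the other gene lists most members were not called, and their counts are read against the 1.55% and 1.41% of all genes tested that were called up and down, and against 7173 of 15324 with a positive log2 fold change. Of 22 CYP2 and CYP3 genes tested, 4 rose and 2 fell, and without library 71, 5 of these rose and 2 fell. Cyp2a5, a coumarin hydroxylase, went from 87.2, 222 and 697 to 282, 938 and 1536 CPM (1.71 ± 0.41, adjusted p = 0.0219), and its near-identical copy Cyp2a4 had 2.90 ± 0.55 (adjusted p = 0.00462). Read pairs that map to both copies are left out of the counts. Cyp2f2 rose by 2.01 on the log2 scale and Por, the reductase that feeds electrons to these enzymes, by 1.22 (adjusted p = 0.0127 and 0.00118). Cyp2c50 (-1.65 ± 0.34) and Cyp3a13 (-0.76 ± 0.20) fell, the latter not called without library 71 (adjusted p = 0.0554). Fmo5 (1.33 ± 0.31), a flavin monooxygenase, rose, and of 13 aldehyde dehydrogenases so did Aldh8a1 (1.10 ± 0.30), which was not called without library 71.

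Of 17 genes for NRF2 (the antioxidant response regulator, encoded by Nfe2l2) and its targets, 2 rose and 14 had a positive log2 fold change, with a median of 0.38. Nfe2l2 itself went from 353, 472 and 587 to 663, 704 and 876 CPM without overlap (0.59 ± 0.10, adjusted p = 0.00185), and Abcc4, an efflux pump of conjugates, from 199, 374 and 393 to 358, 855 and 918 CPM (1.13 ± 0.20, adjusted p = 0.00219). Gclc (0.62 ± 0.21), Txnrd1 (0.52 ± 0.16) and Hmox1 (-0.59 ± 0.19) did not pass. Without library 71, 4 were called, Txnrd1, Cbr3 and Gpx2 among them, and Nfe2l2 no longer reached the fold of 1.5. Of 22 glutathione S-transferases, Gsta4 rose (56.6, 138.7 and 143.6 to 102.3, 306 and 524 CPM, 1.25 ± 0.30, adjusted p = 0.0217), and 2 of the 22 rose without library 71. The study named 5 antioxidant genes from this series, so their direction is not independent evidence: Gsta4 and Pmm1 (0.70 ± 0.14) rose, and Gsta2 (0.90 ± 0.31), Gstm2 (1.02 ± 0.35) and Cbr3 (0.90 ± 0.30) were not called.

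In lipid metabolism, 4 of 20 genes of lipid uptake and droplets rose. Cd36, a fatty acid transporter, went from 181, 378 and 624 to 685, 1004 and 1374 CPM without overlap (1.38 ± 0.22, adjusted p = 8.84e-04). Vldlr, a lipoprotein receptor, went from 17.7, 27.03 and 49.5 to 48.4, 58.5 and 70.5 CPM (1.02 ± 0.14, adjusted p = 3.42e-04), and Lipc, the hepatic lipase, from 0.630, 1.03 and 7.45 to 7.20, 11.8 and 14.2 CPM (2.85 ± 0.44, adjusted p = 8.84e-04). Fabp1 (2.62 ± 0.63) was low, with a TCDD median of 1.65 CPM, and was not called without library 71. Of 23 genes of fatty acid and triglyceride synthesis, Lpin2 (0.94 ± 0.14) rose while Fasn (-0.65 ± 0.16), the fatty acid synthase, and Elovl2 (-1.07 ± 0.18), a polyunsaturated fatty acid elongase, fell. Of 23 fatty acid oxidation genes, Acadl (0.64 ± 0.10) and Fgf21 (2.72 ± 0.69), a fasting hormone, rose. The acyl-CoA thioesterases were listed after their rises had been seen: Acot1 (1.71 ± 0.24), Acot2 (1.20 ± 0.15), Acot3 (2.88 ± 0.55) and Acot4 (1.34 ± 0.19), which lie side by side and are close copies, rose out of 11 tested. Of 23 cholesterol synthesis genes, Mvd (-0.64 ± 0.13) fell, and 3 of the 23 had a positive log2 fold change.

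Of 13 genes of bile acid synthesis and transport none was called, with log2 fold changes of -1.56 to 1.54.

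In central carbon metabolism, 1 of 23 glycolysis genes was called, Aldoa, an aldolase, which fell from 444, 611 and 822 to 298, 376 and 546 CPM (-0.73 ± 0.13, adjusted p = 0.00214). Leaving out library 71 gave 2 falls among the 23. None of 8 pentose phosphate genes, 21 TCA cycle genes and 11 gluconeogenesis genes was called with all libraries, and without library 71 Idh2 (-0.59) and Tat (-2.32) were called down. Nitrogen handling split, with Arg1, arginase, rising from 3.50, 15.05 and 46.5 to 68.01, 115.7 and 188 CPM without overlap (2.82 ± 0.47, adjusted p = 0.00161), and Cps1, the first enzyme of the urea cycle, falling from 81.3, 252 and 486 to 66.7, 78.4 and 254 CPM (-1.31 ± 0.31, adjusted p = 0.0213). Among the 11 genes of that list, 1 rise and 2 falls were called without library 71. Shmt1 (-0.88 ± 0.16) and Nnmt (-1.14 ± 0.22) fell in the lists of serine and of tryptophan and NAD metabolism, each as the only call.

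Of 27 plasma protein genes, 4 fell and 1 rose. Beside Apoa1, the falls were Ahsg, fetuin-A, from 579, 1616 and 2823 to 416, 469 and 1525 CPM (-1.28 ± 0.33, adjusted p = 0.0368, and 0.0629 without library 71, where it was not called), and the fibrinogen chains Fga (-0.90 ± 0.23) and Fgb (-0.94 ± 0.21). F11, coagulation factor XI, rose (1.04 ± 0.24). Crp (-0.99 ± 0.27) and Lbp (-0.63 ± 0.17) fell among 15 acute phase genes. None of 16 liver transcription factors was called, with log2 fold changes of -0.79 to 0.31. Per2 of the circadian clock rose from 12.7, 15.2 and 18.9 to 26.9, 33.4 and 39.5 CPM without overlap (1.10 ± 0.12, adjusted p = 1.37e-05) as the only call of 15. Cpox, an enzyme of heme synthesis, rose from 18.6, 34.2 and 54.2 to 75.1, 109.5 and 143.5 CPM without overlap (1.57 ± 0.19, adjusted p = 6.22e-05), the only call of 17. In retinoid metabolism Rdh10 (1.20 ± 0.20) and Bco1 (0.88 ± 0.09), which make retinal from retinol and from carotene, rose out of 13.

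Of 27 extracellular matrix and cytoskeleton genes, Col4a2 (0.76 ± 0.12), a basement membrane collagen, rose. Vim (-0.76 ± 0.15), Krt19 (-0.97 ± 0.20) and Cdh1 (-0.78 ± 0.19) fell. Spp1 (-0.76 ± 0.20), osteopontin, fell too. Krt19 and Spp1 are also cholangiocyte markers, whose summed level was 782 to 1631 CPM with vehicle and 483 to 1028 CPM with TCDD. Spp1 itself averaged 881 CPM with vehicle and 529 CPM with TCDD, and so made up most of that sum. Of the 8 cholangiocyte markers, 6 were not called and 2 had a positive log2 fold change. Vcam1 (-1.74 ± 0.41) and Relb (-0.67 ± 0.16) fell among 16 inflammatory genes, and none of 18 interferon-stimulated genes was called, though 17 of the 18 had a negative log2 fold change (median -0.49). Without library 71, Cxcl10 (-1.95) and the interferon-stimulated Ifit3 (-2.09) were called down, as were Hamp (-3.57), the iron hormone hepcidin, and Cyp3a11 (-2.20), the main xenobiotic CYP3A of mouse liver. Ccnd1, cyclin D1, fell (-1.15 ± 0.25) as the only call of 24 cell cycle genes, and none of 15 stress response genes was called. Of 9 fetal liver and progenitor genes tested, Gpc3 and Spp1 fell and Prom1 (2.14 ± 0.40) rose. Among ligands of the EGF receptor, a family listed after values were seen, Areg went from 0.208, 0.874 and 2.04 to 3.57, 10.3 and 18.5 CPM without overlap (3.58 ± 0.32, adjusted p = 1.68e-06), Ereg rose (2.56 ± 0.35) and Hbegf fell (-0.78 ± 0.21).

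**Figure D4:**
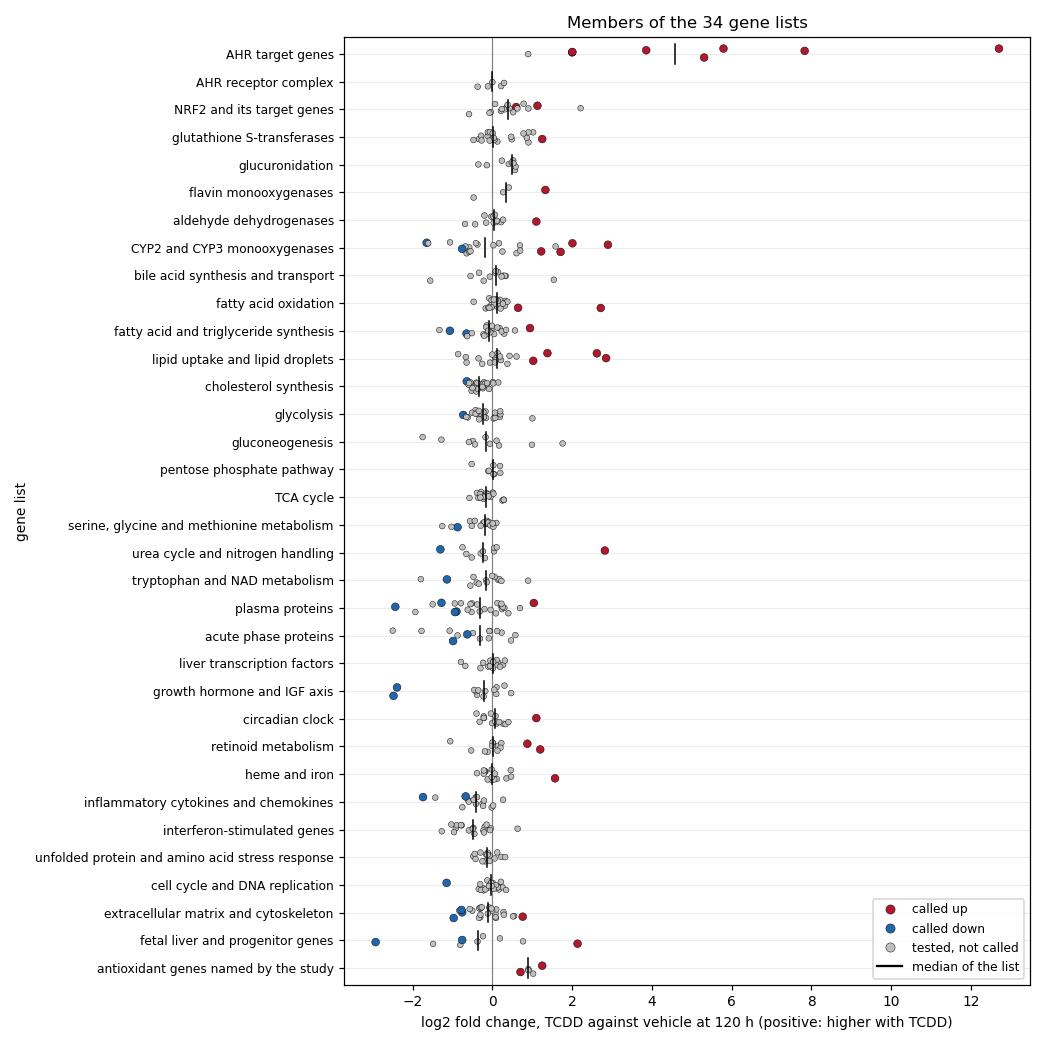
Log2 fold changes of TCDD against vehicle at 120 h for the tested members of 34 gene lists, with called genes in red (up) or blue (down), others in grey and a black line at each list's median. The AHR target genes reach 12.71 with a median of 4.58, while the median over all genes tested was -0.02 and the medians of the other lists drawn ran from -0.49 to 0.90.

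The study asked whether the response depends on the Pkm response element, and each label was therefore also tested by itself with a shared estimate of the spread. Under the WT label 162 genes were called (1.06%), 99 up and 63 down, and under the PkmΔDRE label 146 (0.953%), 93 up and 53 down. The 77 genes called under both are 47.5% of the first list and 52.7% of the second, and 76 of them had the same direction. The exception, Rps6-ps4, is a pseudogene of a ribosomal protein gene and was picked out after its values were seen, with 1.38 ± 0.29 under the WT label and -1.31 ± 0.29 under the PkmΔDRE label. A response that differed between the labels was called for 0 genes by edgeR's quasi-likelihood test (482 of 15324 at an unadjusted p under 0.05, smallest adjusted p = 0.0774) and for 12 by DESeq2. In simulated counts the edgeR test recovered 9.18% of genes with a true log2 difference of 1 and 59.8% of those with 2. The 0 calls therefore do not show that the labels responded alike. Ugt1a9 had 3.56 under the WT label and 7.50 under the PkmΔDRE label, and Igf1 -3.19 and -1.64, with an adjusted p for the difference of 1 for Ugt1a9 and 1 for Igf1. With WT TCDD replicates 1, 2 and 4 summed to 1 library, 29 rises and 0 falls were called under the WT label. Leaving out 1 library at a time gave 6 to 78 falls under the WT label and 22 to 87 under the PkmΔDRE label, so neither count is stable.

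The 120 h response was set against those of 24 h and 96 h, which have their own vehicle libraries. The 24 h and 96 h values come from group-means fits that also held the 120 h libraries. Those of 120 h come from the fit of its own 16 libraries with the label as covariate, so the numbers of calls are not from like fits. At 24 h, 70 of 16016 genes were called (0.437%), 59 up and 11 down, and at 96 h 890 of 16023 (5.55%), 325 up and 565 down. The 48 genes called at both 120 h and 24 h are 10.6% of the 120 h list and 68.6% of the 24 h list, and the 260 called at both 120 h and 96 h are 57.4% and 29.2%. All shared calls had the same direction. Of the 453 genes called at 120 h, 443 had the same sign at 96 h. At 96 h, PkmΔDRE vehicle replicate 4 stood apart from the other 7 vehicle libraries, with 590 CPM of Ces1f against 0.18 to 2.59, 16832 CPM of Apoa1 against 325 to 1914, and 660 CPM of Igfbp2 against 4.60 to 11.8. Without that library, left out once its values had been seen, 934 of 16522 genes were called at 96 h (5.65%), 414 up and 520 down, and the 329 shared with 120 h are 72.6% and 35.2% of the lists. WT vehicle replicate 3 at 96 h held 2052 CPM of Cyp1a1, and without it 769 of 16430 genes were called (4.68%).

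Tested directly, the response at 120 h differed from that at 24 h for 9 genes (0.0562%), 8 more positive and 1 more negative at 120 h. Ces1f stood at 0.33 ± 0.41 at 24 h and 5.60 ± 0.60 at 120 h, and the difference of 120 h minus 24 h was 5.29 ± 0.68, adjusted p = 1.47e-04. Its mean went from 35.1 to 0.359 CPM in vehicle libraries and from 47.7 to 17.8 CPM in TCDD libraries. At 96 h its log2 fold change was 0.79 ± 0.90 with all libraries and 4.45 ± 0.55 without PkmΔDRE vehicle replicate 4. Ces1b (4.07 ± 0.57, adjusted p = 5.17e-04) and Ces1c (2.85 ± 0.53, adjusted p = 0.0198) also had 24 h log2 fold changes near 0, at -0.02 and 0.04. For Ces1b the vehicle mean went from 20.9 to 0.691 CPM and the TCDD mean from 20.5 to 10.8 CPM. For Ces1c they went from 565 to 39.5 CPM and from 595 to 253 CPM. The larger fold changes of these Ces1 genes at 120 h thus went with means that were lower than at 24 h under both treatments. Ugt1a9 was at 0.63 at 24 h and 3.80 at 96 h, where it was called, with a difference of 4.93 ± 0.78, adjusted p = 0.00271. Adh7 and Reln were already called at 24 h (2.14 and 1.48) and had larger log2 fold changes at 120 h, by 3.11 ± 0.57, adjusted p = 0.0198 and 2.53 ± 0.47, adjusted p = 0.0198. Lipc (2.43 ± 0.40, adjusted p = 0.00493) and Acot2 (from -0.27 to 1.20, adjusted p = 0.0433) were the others with a more positive response, and that of Igf1 was more negative (-1.96 ± 0.39, adjusted p = 0.0433). The Lipc mean went from 40.5 to 1.77 CPM with vehicle and from 57.9 to 11.5 CPM with TCDD. Adh7, Ces1c and Igf1 were not called in this comparison with no filter on low counts (adjusted p = 0.0698, 0.108 and 0.123), nor with WT TCDD replicates 1, 2 and 4 summed (adjusted p = 0.103 for each). Reln, Lipc and Acot2 were not followed through these alternatives. Cyp1a1 stood at 8.86 at 24 h and 5.80 at 120 h, a difference that did not pass the test (adjusted p = 0.438). The lower value at 120 h went with a higher vehicle level, 0.838 to 59.7 CPM at 24 h and 9.62 to 326 CPM at 120 h. Between 96 h and 120 h 0 genes were called by edgeR (533 at an unadjusted p under 0.05, smallest adjusted p = 0.132) and 1 by DESeq2. In simulated counts the edgeR test of these hours recovered 33.7% of genes with a true log2 difference of 1 and 70.4% of those with 2, so differences may be missed. Without library 71 the comparison with 24 h gave 8 genes more positive and 5 more negative.

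**Figure D5:**
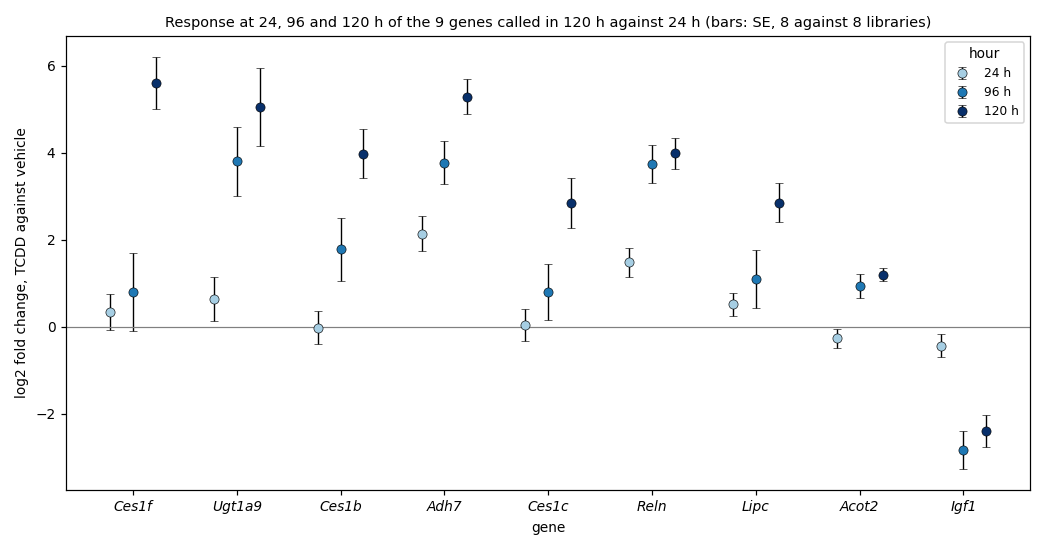
Log2 fold change of TCDD against vehicle with its standard error at 24, 96 and 120 h, each over 8 against 8 libraries, for the 9 genes called in the comparison of 120 h with 24 h. Ces1f, Ces1b and Ces1c are near 0 at 24 h and above 2 at 120 h, and Igf1 goes from -0.43 to -2.39. The 96 h values include PkmΔDRE vehicle replicate 4, without which Ces1f stands at 4.45. Values of 24 h and 96 h come from fits that also held the 120 h libraries, and those of 120 h from its own fit.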

How the data were processed

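RNA-Seq libraries of primary mouse hepatocytes (144 in all, 16 at 120 h, 4 in each group) were analysed from the deposited counts. The authors had checked reads with FastQC 0.11.3, trimmed them with Trimmomatic 0.39 and, per the labels, counted whole read pairs per gene with STAR 2.7 on GRCm39, after a kit without strand information by the split of the stranded columns. The unstranded count column was used. STAR leaves out pairs that map to several places or lie on several genes. Pairs not counted on a gene (18.2% to 24.2% of all pairs, unmapped pairs included) stayed out of library sizes and tests. Of the pairs mapped to 1 place, 6.33% to 11.8% lay on no gene, and this share is the covariate named below. Gene names came from a GRCm38 table, which matched 52083 of 55359 identifiers. Promoters came from RefSeq GRCm38.p6 and their coordinates are of that build.

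Counts were fitted in R 4.3.3 with edgeR 4.0.16 (TMM, filterByExpr with a count minimum of 10 and a total of 15, robust quasi-likelihood F test), with the genotype label as covariate, or with group means for single labels, their difference and the comparisons of hours. P-values were adjusted over all genes tested with the Benjamini-Hochberg method. A gene was called at an adjusted p under 0.05 and a fold of at least 1.5. A standard error is the size of the log2 fold change before edgeR's shrinkage, divided by the square root of F. The log2 fold changes printed are the shrunken ones, so the error is only approximate for genes with hardly any counts in a group. CPM were scaled with TMM over the libraries of 24, 96 and 120 h. DESeq2 1.42.0, RLE scaling, no filter, a surrogate variable (sva 3.50.0), a covariate for pairs on no gene, a fit of all libraries, separate fits and leaving out each library were alternatives. The scripts were tested on simulated data. Depth of 16020989 counts or more limits precision for genes under about 1 CPM.

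The genes named were Pkm, the AHR target genes, the 15 largest rises and 15 largest falls called with and without library 71 (at least 1 CPM in the higher group, no unnamed gene models or mitochondrial genes), up to 4 called members of each gene list, and the 5 largest called changes in each direction for the other comparisons. Further members are given as values for context. The members and lists were chosen with earlier results of these data known. Some genes that this rule or the lists would name are not reported here.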

Additional observations from a re-analysis of the deposited data

Results flagged for a closer look

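Libraries that lay far from the other 3 of their group were searched for among 152 sets of 4 values at 120 h with Dixon's criterion, and 21 passed. Independent sets of normal values would give about 8. These sets share libraries, and a set in which a single library has any count always passes. The 21 are thus not a measured excess over chance.

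WT TCDD replicate 3 accounted for 10 of them. It held 4210 CPM of Cyp1a1 (others 5172 to 5312), 781 CPM of Cyp1a2 (others 3819.8 to 4063), 755 CPM of Cyp1b1 (others 1248 to 1298), 62.2 CPM of Tiparp (others 130.4 to 133.8) and 44.4 CPM of Nqo1 (others 129.99 to 134.3). It was also lower in Adh7 at 38.6 CPM (others 68.4 to 70.1), Ugt1a9 at 49.2 CPM (others 127.5 to 130.9) and Ces1b at 2.30 CPM (others 11.5 to 12.6). It was higher in Wfdc21 at 3.20 CPM (others 0.142 to 0.633) and Pkm at 407 CPM (others 298 to 315). The other 3 libraries of that group were closer to each other than any other pair of the 16, so that small departures pass the criterion.

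WT vehicle replicate 2 held 34.5 CPM of Ugt1a9 (others 0.622 to 1.24) and 163 CPM of Wfdc21 (others 3.23 to 9.02), and 5.40% of its reads were unmapped (others 3.83% to 3.96%). Among WT vehicle libraries, replicate 1 held 0.124 CPM of Slitrk5, with the others at 0, and 7.55 CPM of Tff3 (others 19.4 to 21.3).

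Among PkmΔDRE vehicle libraries, replicate 3 held 0.339 CPM of Ahrr, with the others at 0. Replicate 2 held 0.0833 CPM of Kcnv2 and replicate 4 held 0.271 CPM of Slitrk5, with the others at 0. Replicate 1 held 5.57 CPM of Reln (others 5.87 to 5.91) and 0.762 CPM of Fibin (others 4.28 to 4.66). PkmΔDRE TCDD replicate 2 held 35.4 CPM of Ces1f (others 3.82 to 7.85).

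The TCDD response at 120 h differed from that at 24 h by edgeR's quasi-likelihood test for 9 genes. The log2 fold change of 120 h minus 24 h was 5.29 for Ces1f, 4.93 for Ugt1a9, 4.07 for Ces1b, 3.11 for Adh7, 2.85 for Ces1c, 2.53 for Reln, 2.43 for Lipc, 1.5 for Acot2 and -1.96 for Igf1.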

How the results depend on the processing

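No paired analysis was possible because the labels give no replicate numbers that the groups share.

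Counts of genes called are given here as percentages of the 15324 genes tested with all libraries. For TCDD against vehicle at 120 h, with 1.55% rises and 1.41% falls, RLE scaling, no filter on low counts, 1 surrogate variable, no fold threshold and 14 of the 16 omissions of a library kept both within 1.5 times. DESeq2 gave 2.23% falls, a covariate for pairs on no gene 2.87% rises and 2.37% falls, and a fit of all libraries 0.431% falls. Leaving out each library gave 1.29% to 1.86% rises and 0.887% to 1.59% falls, with 0.920% without WT TCDD replicate 2 and 0.887% without replicate 4. With WT TCDD replicates 1, 2 and 4 summed, which was added once the data had been seen, rises were 1.02% and falls 0.496%. Under the WT label (0.646% and 0.411%) DESeq2 gave 1.31% and 1.43%, the summed library 0.189% and 0%, and leaving out each library 0.307% to 0.757% and 0.0392% to 0.509%. In genes, rises and falls were 56 and 38 without WT vehicle replicate 1, 54 and 25 without replicate 4, 53 and 10 without WT TCDD replicate 1, 47 and 6 without replicate 2, and 50 and 6 without replicate 4, against 99 and 63. Falls were 27 without WT vehicle replicate 2 and 38 without PkmΔDRE TCDD replicate 4. Under the PkmΔDRE label (0.607% and 0.346%) DESeq2 gave 1.28% and 1.12%, a separate fit 0.392% and 0.202%, the summed library 0.378% and 0.215%, and leaving out each library 0.326% to 0.829% and 0.144% to 0.568%. In genes, they were 50 and 25 without PkmΔDRE vehicle replicate 4, against 93 and 53. Falls were 87 without WT vehicle replicate 2, and 28, 35 and 22 without PkmΔDRE TCDD replicates 1, 2 and 4. The difference between labels (0 genes) was called for 12 genes by DESeq2, 1 with no filter, and 0 to 1 with a library left out, the 1 being without WT vehicle replicate 2. For 120 h against 24 h (8 more positive, 1 more negative) RLE scaling gave 3 more negative, no filter 5 and 0, DESeq2 21 and 15, the summed library 4 and 0, and leaving out library 71 gave 8 and 5. For 120 h against 96 h (0 genes) DESeq2 called 1, and 0 were called without PkmΔDRE vehicle replicate 4 or WT vehicle replicate 3 of 96 h. The cause of these moves was not tested.

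For TCDD against vehicle, Pkm, the AHR target genes tested and the largest rises and falls were followed through the alternatives. None of these genes reversed its direction. Named genes outside these sets, such as Cd36, Areg and Per2, were not followed through the full set of alternatives. Among the genes followed, Ugt1a6a, Cyp4f14, Apoa1 and Wfdc21 lost the call with no filter and with the summed library. Nhs and Fibin lost it with the summed library, and Nhs, Tmem229a, Slc4a9 and Eya2 in the fit of all libraries. Lekr1 gained it with DESeq2 and with the covariate. DESeq2 gave no adjusted p for Ugt1a9 and Wfdc21. In the comparison with 24 h, Adh7, Ces1c and Igf1 lost the call with no filter and with the summed library. Reln, Lipc and Acot2 were not followed there. Depth limits Kcnv2, Slitrk5, Mal and Ahrr, whose vehicle levels rest on few reads.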
